A study of Homo sapiens with 15 samples.

Results

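Amino acid transporters of the solute carrier (SLC) families SLC1, SLC3, SLC6, SLC7, SLC36, SLC38 and SLC43 were examined in 2 clear cell renal cell carcinoma (ccRCC) lines with knockout of *ANGPTL4*. The genes were chosen by symbol, by a rule that uses no measured value but was set with earlier results of these data known. Of SLC43 only *SLC43A1* and *SLC43A2* were taken. They numbered 42 of the 16296 genes of CAKi-1 and 42 of the 16188 genes of 786O, with 38 in both lines and 46 in either line. GENCODE release 44 holds 58 protein-coding genes with the symbols searched for, and the other 12, among them *SLC7A9*, were not analysed here. Of the 42 genes, SLC1 gave 6 in each line, SLC3 gave 2, SLC6 gave 11, SLC7 gave 8 and SLC43 gave 2, whereas SLC36 gave 3 in CAKi-1 and 4 in 786O, and SLC38 gave 10 and 9.

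CAKi-1 is a human ccRCC line with WT VHL and 786O is one with mutant VHL. VHL is the tumor suppressor that marks hypoxia-inducible factors for degradation, and *ANGPTL4* encodes a secreted inhibitor of lipoprotein lipase. RNA-seq was performed on 4 WT and 5 ANGPTL4 KO (A4KO) libraries of CAKi-1 and on 3 WT and 3 A4KO libraries of 786O. CRISPR-Cas9 with a single guide RNA was used to make clones, and those that had lost *ANGPTL4* mRNA were pooled as the A4KO cells of their line. WT cells of 786O were combined from clones without that loss, whereas for CAKi-1 the study's methods name parental cells and its description of the data names combined clones. All cells were harvested in log phase with no further treatment. The labels name RPMI as the culture medium, whereas the study's methods name DMEM, and which of these media fed the sequenced cells cannot be told from the sources. A difference between A4KO and WT can also hold what differs between the clones that were combined.

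Cells take up amino acids through carriers that differ in what they move and in what they move it with. SLC1 and SLC38 carriers use the sodium gradient to bring in glutamate, glutamine, alanine and serine, and SLC43 carriers let large neutral amino acids pass down their gradient. The SLC7 light chains are exchangers that reach the plasma membrane only when bound to a heavy chain of the SLC3 family, so that a heterodimer such as SLC3A2 with SLC7A5 imports leucine and other large neutral amino acids as glutamine leaves the cell. SLC36 carriers such as SLC36A1 move amino acids with protons, and the SLC6 family holds carriers of glycine, GABA, betaine, taurine, creatine, monoamines and neutral amino acids. In the kidney, several of these carriers reclaim amino acids in the proximal tubule, the part of the nephron from which ccRCC is thought to arise.

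*ANGPTL4* was at 71.7 to 86.9 TPM in CAKi-1 WT and at 2.87 to 7.26 TPM in A4KO libraries, and in 786O it was at 17.6 to 20.6 and 1.86 to 2.19 TPM. TPM, the unit of the values, is the share of a gene among all transcripts of a library, scaled for transcript length, and it keeps no read number. The labels state 3000000 reads of 150 bases per sample, and how precise low values are cannot be read from TPM. Of 12 markers of ccRCC and renal epithelium, 9 were listed in CAKi-1, where their summed level was 5536 to 6630 TPM in WT and 2974 to 3901 TPM in A4KO libraries. In 786O all 12 were listed, at 5928 to 6150 and 4568 to 4609 TPM. Among them *PAX8* was at 143 to 198 and 157 to 230 TPM in CAKi-1 and at 225 to 238 and 148 to 155 TPM in 786O. There *PAX2* was at 10.6 to 11.4 TPM in WT and 38.4 to 44.1 TPM in A4KO libraries. *CA9*, a target of hypoxia-inducible factors, was at 6.65 to 8.1 and 0.116 to 0.469 TPM. *PTPRC*, which marks immune cells, did not exceed 0.541 TPM in any library. Of the fibroblast and muscle markers, 5 of 5 were listed in each line, and their summed level was 36.5 to 41.9 TPM in CAKi-1 WT and 49.1 to 69.5 TPM in A4KO libraries, and 27.0 to 28.9 and 15.8 to 18.2 TPM in 786O. The higher sum in CAKi-1 A4KO libraries came from *COL1A1* (9.35 to 11.8 TPM in WT and 30.0 to 45.2 TPM in A4KO libraries), whereas *ACTA2* (23.1 to 26.6 and 15.7 to 21.3 TPM) and *LUM* (3.1 to 4.07 and 1.17 to 2.27 TPM) were lower. The endothelial list had 1 of 4 markers listed, *PECAM1*, at 0.209 to 0.555 TPM in CAKi-1 WT and 1.54 to 6.17 TPM in A4KO libraries, and at 0.85 to 1.44 and 0.411 to 0.563 TPM in 786O. Immune markers summed to 56.3 to 59.9 and 50.1 to 60.7 TPM in CAKi-1, nearly all of it *CD68*, and to 42.8 to 44.1 and 20.2 to 21.5 TPM in 786O. Mitochondrial genes held 6.39 to 7.88% of the TPM of CAKi-1 WT and 6.58 to 8.00% of A4KO libraries, and in 786O, where the groups did not overlap, 7.47 to 8.16% and 9.46 to 10.0%. The part of these markers and of the mitochondrial share in the changes of the transporters was not tested, and in bulk RNA fewer cells of a type and less RNA per cell cannot be told apart.

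CAKi-1 A4KO replicates 1 and 4 stood apart from replicates 2, 3 and 5. They were at 33.9 and 34.0 TPM of *SLC7A5*, against 58.4 to 72.7 TPM in the other A4KO libraries, and at 25.9 and 28.7 TPM of *SLC7A7*, against 11.2 to 16.9 TPM. Values for CAKi-1 are given over all 9 libraries and, for a part of the transporters, also over A4KO replicates 2, 3 and 5 alone. No label says that replicates came from separate cultures, so p-values measure only the spread between libraries, which may be technical.

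Amino acid transporters changed in both directions in each line. Changes were tested on log2(TPM + 1) with limma, and a gene was taken as changed at an adjusted p of at most 0.05 over all genes of its line. In CAKi-1 A4KO cells, 10 of the 42 transporters rose, 6 fell and 26 did not pass. Over all genes of CAKi-1, 17.9% rose and 21.1% fell, and the median log2 fold change was 0.05 for the transporters and -0.01 for all genes. In 786O A4KO cells, 12 of the 42 rose, 13 fell and 17 did not pass. Over all genes of 786O, 27.5% rose and 33.5% fell, with medians of -0.01 for the transporters and -0.03 for all genes. The shares of transporters that changed were near those of all genes, and the 2 lines differed in which transporters moved and in which direction.

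With a log2 fold change of at least 1 required as well, the threshold of the study, 2 transporters were higher in CAKi-1 A4KO cells, *SLC7A7* and *SLC1A3*, and 1 was lower, *SLC7A5*. Over all CAKi-1 genes 2.21% were higher and 1.12% lower by this rule. The CAKi-1 count was 5 without WT replicate 4, 2 without WT replicate 1, WT replicate 2 or A4KO replicate 4, and 7 with a pseudocount of 0.1 in place of 1. In 786O, 3 were higher, *SLC7A5*, *SLC6A9* and *SLC6A13*, and 5 were lower, *SLC38A5*, *SLC43A1*, *SLC7A7*, *SLC38A11* and *SLC7A11*, against 2.43% and 5.19% of all genes. Some of these lay near the fold threshold. *SLC1A3* was below it without WT replicate 1 or 2 or A4KO replicate 4 (0.93, 0.99 and 0.99), with quantile normalization (0.92) and when the median change of the 25 expressed neighbours on each side of a gene was taken off (0.70). In 786O *SLC7A11* (-0.87) and *SLC38A11* (-0.98) missed it with quantile normalization, *SLC6A13* without WT replicate 1 (0.97), and *SLC7A7* (-0.55), *SLC7A11* (-0.90) and *SLC6A13* (0.99) with the neighbours taken off. The libraries of the 2 genotypes did not overlap for 14 of the 42 transporters in CAKi-1, against 35.9% of all genes, and for 29 of the 42 in 786O, against 66.9% of all genes.

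Of the 38 transporters measured in both lines, 10 (26.3%) changed in opposite directions, against 16% of the 15247 genes that both lines share. *SLC1A1*, *SLC1A4*, *SLC38A2*, *SLC43A1* and *SLC7A7* rose in CAKi-1 and fell in 786O, and *SLC3A2*, *SLC6A13*, *SLC7A5*, *SLC7A6* and *SLC7A8* fell in CAKi-1 and rose in 786O. *SLC43A2* rose in both, 0 fell in both, and 11 changed in neither. The same counts were not made over all shared genes, so whether these are unusual cannot be told. The difference of the changes was tested as an interaction over the shared genes. It was higher in 786O for 9 transporters and lower for 12, against 26.3% and 28.8% of all genes. The 10 transporters with opposite changes were all among these 21, which their choice by opposite calls in the same libraries makes nearly certain. With the neighbours taken off, 10 transporters again had opposite changes, but *SLC1A1* no longer passed in 786O nor *SLC7A6* in CAKi-1, and *SLC36A1* and *SLC38A7* took their place.

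**Figure D1:**
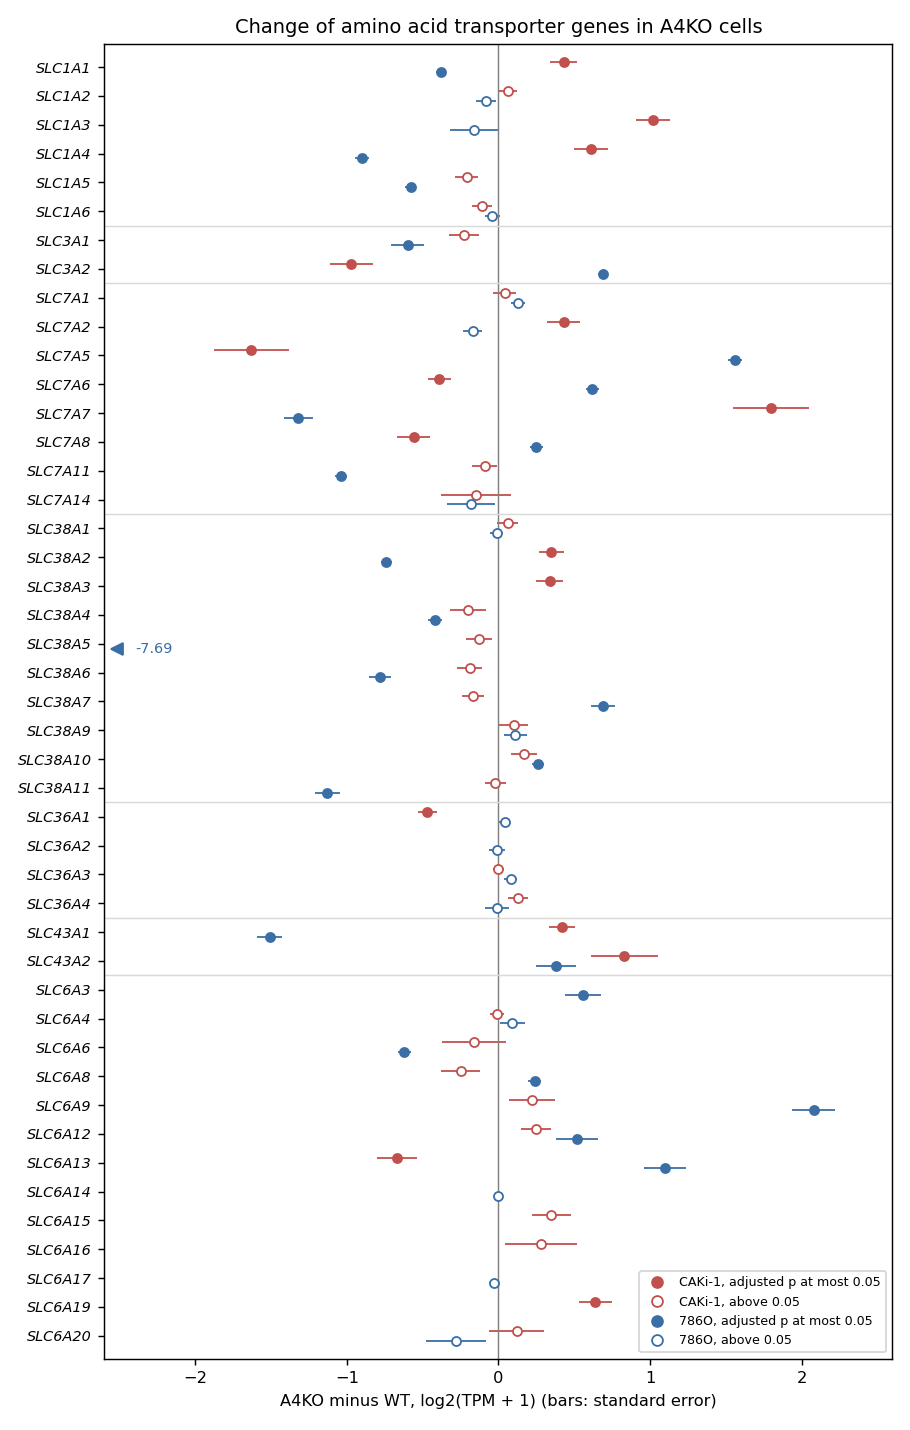
Change of the amino acid transporter genes that are reported by name in A4KO cells, as the difference of mean log2(TPM + 1) between A4KO and WT (horizontal axis), with CAKi-1 in red and 786O in blue, bars for the standard error, filled points at an adjusted p of at most 0.05 and grey lines between families. *SLC38A5* in 786O lies beyond the axis, at -7.69, and the points of *SLC7A5* and *SLC7A7* lie on opposite sides of 0 in the 2 lines.

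*SLC3A2* encodes the heavy chain of the heterodimers, also known as 4F2hc or the heavy chain of CD98 (chromosome 11, 62856004 to 62888880 on the plus strand of hg38). In CAKi-1 WT replicates it was at 186, 201, 169 and 166 TPM, and in A4KO replicates 1 to 5 at 74.9, 98.0, 115, 74.1 and 101 TPM. Every A4KO library was below every WT library, the mean fell from 181 ± 16.4 to 92.6 ± 17.7 TPM (SD, n = 4 and 5), for a log2 fold change of -0.97 (standard error 0.14, adjusted p = 6.37e-04) or -0.78 with A4KO replicates 2, 3 and 5 alone. In 786O it was at 234, 245 and 245 TPM in WT, against 390, 390 and 387 TPM in A4KO cells. The groups again did not overlap, but *SLC3A2* was higher in A4KO cells, by 0.69 on the log2 scale (standard error 0.036, adjusted p = 1.59e-05). The 2 changes differed by 1.66 (standard error 0.18, adjusted p = 3.36e-06).

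*SLC7A5* encodes the main light chain of this heavy chain, a leucine and large neutral amino acid exchanger (chromosome 16, 87830023 to 87869507 on the minus strand). CAKi-1 WT replicates were at 172, 185, 144 and 142 TPM, and A4KO replicates 1 to 5 at 34.0, 58.4, 72.7, 33.9 and 68.7 TPM. The mean of WT libraries was 3.00-fold that of A4KO libraries, at 161 ± 21.4 and 53.5 ± 18.6 TPM, at a log2 fold change of -1.63 (standard error 0.25, adjusted p = 9.42e-04), or -1.26 without A4KO replicates 1 and 4. In 786O, WT replicates were at 208, 190 and 195 TPM and A4KO replicates at 577, 592 and 584 TPM, so that *SLC7A5* became the most abundant of the 42 transporters by mean TPM and made up 31.8% ± 0.153 (SD, n = 3) of their summed TPM in A4KO cells, against 10.8% ± 0.335 in WT. Its log2 fold change there was 1.56 (standard error 0.044, adjusted p = 1.73e-06), a 2.96-fold rise, and the change differed between the lines by 3.20 (standard error 0.32, adjusted p = 1.86e-06). In the reference, 8.29% of the 31-base words of its canonical transcript also occur in transcripts of other genes, *SLC7A5P2* among them, so a part of its reads could be assigned to such copies.

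*SLC7A7* encodes the light chain that exports arginine and lysine in exchange for neutral amino acids, best known from the basal side of kidney and gut epithelium (chromosome 14, 22773222 to 22829820 on the minus strand). It changed in the direction opposite to *SLC7A5* in both lines. CAKi-1 WT replicates were at 4.55, 4.55, 4.06 and 4.76 TPM and A4KO replicates 1 to 5 at 28.7, 16.9, 13.3, 25.9 and 11.2 TPM. The log2 fold change was 1.80 (standard error 0.25, adjusted p = 5.92e-04), or 1.42 without replicates 1 and 4. In 786O, WT replicates were at 48.7, 46.8 and 43.3 TPM and A4KO replicates at 18.2, 15.7 and 20.3 TPM. There the log2 fold change was -1.32 (standard error 0.096, adjusted p = 6.13e-05), or -0.55 with the neighbours taken off, and no library of a group overlapped the other group in either line.

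Another exchanger of the same substrates, *SLC7A6*, followed *SLC7A5* with smaller changes. CAKi-1 WT replicates were at 28.4, 28.9, 30.4 and 32.4 TPM and A4KO replicates at 24.5, 20.2, 23.2, 20.8 and 25.3 TPM, a fall of the mean to 22.8 ± 2.22 TPM (log2 fold change -0.39, adjusted p = 0.00407), which did not pass with the neighbours taken off (-0.17, adjusted p = 0.127). In 786O, WT replicates were at 19.3, 20.3 and 19.8 TPM and A4KO replicates at 30.7, 32.3 and 30.1 TPM, with a log2 fold change of 0.62 (adjusted p = 4.70e-05), or 0.24 (adjusted p = 0.00674) with the neighbours taken off. Of the 31-base words of its transcript, 58.4% are shared with other genes, mostly the neighbouring *SLC7A6OS*, and its values are uncertain to that extent.

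*SLC7A8*, a light chain for neutral amino acids of kidney epithelium, was low in both lines. It was at 0.923, 0.735, 1.20 and 0.504 TPM in CAKi-1 WT and at 0.142, 0.221, 0.401, 0.206 and 0.242 TPM in A4KO libraries (log2 fold change -0.56, adjusted p = 0.00344). In 786O it rose from 0.146, 0.194 and 0.0950 TPM to 0.359, 0.372 and 0.365 TPM (log2 fold change 0.25, adjusted p = 0.00243). Its neighbours there had a median of -0.84, and with them taken off the value was 1.07 (adjusted p = 7.43e-06). A gene at its WT level cannot fall by that much on the log2(TPM + 1) scale. The value of 1.07 therefore does not measure a rise of this size against the neighbours. The pseudocount of 1 makes the values of -0.56 and 0.25 smaller than the ratio of the means, which was 3.47 in favour of WT in CAKi-1 and 2.52 in favour of A4KO in 786O.

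*SLC7A11*, the light chain that imports cystine in exchange for glutamate and so feeds glutathione synthesis, changed in 786O. It fell from 11.8, 11.4 and 10.9 TPM in WT to 5.15, 5.00 and 4.91 TPM in A4KO cells (log2 fold change -1.04, standard error 0.041, adjusted p = 5.78e-06). In CAKi-1 it was at 1.71, 2.05, 1.68 and 2.25 TPM in WT, against 1.76, 1.83, 1.76, 1.38 and 1.99 TPM in A4KO libraries. These groups overlapped and the log2 fold change was -0.09 (adjusted p = 0.423), and the change was lower in 786O by 0.95 (adjusted p = 7.69e-06).

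**Figure D2:**
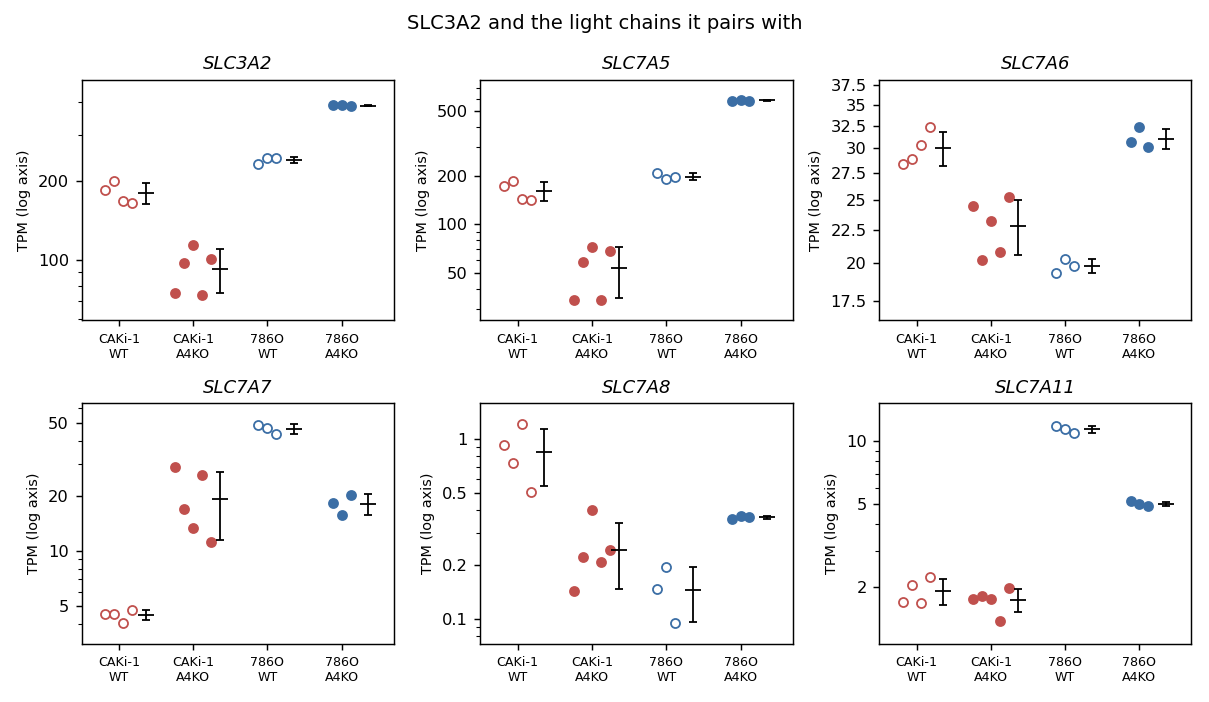
TPM of *SLC3A2* and of the light chains that pair with it in each library (log axis), with open circles for WT, filled circles for A4KO, and the mean with its SD beside each group. *SLC3A2*, *SLC7A5* and *SLC7A6* are lower in A4KO than in WT in CAKi-1 and higher in 786O, and *SLC7A7* shows the reverse.

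Summed over *SLC7A5*, *SLC7A6*, *SLC7A7*, *SLC7A8* and *SLC7A11*, the light chains were at 198 ± 19.9 TPM in CAKi-1 WT and 97.6 ± 12.2 TPM in A4KO libraries, and at 275 ± 10.7 and 639 ± 6.89 TPM in 786O. The mRNA of the heavy chain fell along with the light chains in CAKi-1. There the ratio of *SLC3A2* to the summed light chains was 0.913 ± 0.0142 in WT (0.897 to 0.931) and 0.944 ± 0.0766 in A4KO libraries (0.84 to 1.03). With A4KO replicates 2, 3 and 5 alone it was 0.993 ± 0.0434 (0.945 to 1.03), above the range of the WT libraries. In 786O the ratio was 0.880 ± 0.0570 in WT and 0.609 ± 0.00743 in A4KO libraries, and the 2 groups did not overlap (0.814 to 0.914 and 0.604 to 0.617). The make-up of the light chains moved in opposite directions. In CAKi-1 *SLC7A5* made up 81.0% ± 2.69 of the summed light chains in WT and 53.7% ± 13 in A4KO libraries, as *SLC7A7* went from 2.28% ± 0.241 to 20.7% ± 10.5. Over A4KO replicates 2, 3 and 5 alone these shares were 63.0% ± 2.83 for *SLC7A5* and 13.3% ± 3.60 for *SLC7A7* (SD, n = 3), still outside the range of the WT libraries. In 786O *SLC7A5* went from 71.8% ± 0.951 to 91.5% ± 0.225 and *SLC7A7* from 16.8% ± 0.662 to 2.83% ± 0.374.

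**Figure D3:**
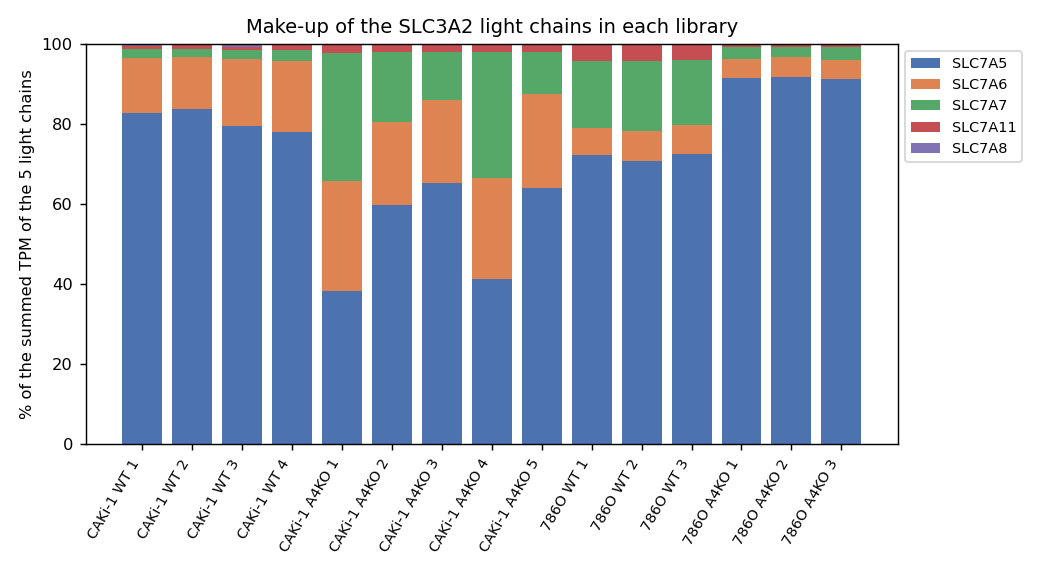
Share of each light chain in the summed TPM of the 5 light chains (vertical axis, percent), with a bar for each of the 15 libraries. *SLC7A5* takes 78.0 to 83.6% in CAKi-1 WT, 38.1 to 65.3% in CAKi-1 A4KO, 70.7 to 72.4% in 786O WT and 91.3 to 91.7% in 786O A4KO libraries.

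The other SLC7 and SLC3 members were *SLC7A1*, *SLC7A2*, *SLC7A14* and *SLC3A1*. *SLC7A1*, the widely expressed importer of arginine and lysine, was at 17.9, 20.1, 20.4 and 23.0 TPM in CAKi-1 WT and at 19.7, 20.8, 22.0, 20.0 and 22.3 TPM in A4KO libraries, with adjusted p = 0.678. In 786O it was at 35.0, 34.3 and 32.7 TPM in WT, against 38.1, 38.5 and 35.5 TPM in A4KO libraries, with adjusted p = 0.0528, or 0.0298 without A4KO replicate 3. Its relative *SLC7A2*, another carrier of basic amino acids, rose in CAKi-1 from 6.04 ± 0.572 to 8.52 ± 1.33 TPM (log2 fold change 0.43, adjusted p = 0.0114, or 0.29 without A4KO replicates 1 and 4). In 786O *SLC7A2* was at 0.253 ± 0.103 TPM in WT and 0.111 ± 0.00958 TPM in A4KO libraries (adjusted p = 0.055, or 0.0409 without WT replicate 2). *SLC3A1*, the heavy chain that pairs with SLC7A9 to reclaim cystine in the kidney, was at 0.792, 0.768, 0.481 and 0.334 TPM in CAKi-1 WT and at 0.248, 0.399, 0.386, 0.261 and 0.485 TPM in A4KO libraries, with adjusted p = 0.0984, or 0.0281 without WT replicate 4. In 786O it was at 0.823, 1.06 and 1.13 TPM in WT, against 0.514, 0.151 and 0.328 TPM in A4KO libraries (log2 fold change -0.60, adjusted p = 0.00396). Since 97.7% of the 31-base words of its transcript also occur in transcripts of other genes, *PREPL* among them, its values cannot be assigned to *SLC3A1* with certainty. *SLC7A14* was at 0.985 ± 0.615 TPM in WT and 0.771 ± 0.41 TPM in A4KO libraries of CAKi-1 and at 0.400 ± 0.236 and 0.236 ± 0.194 TPM in 786O. Its groups overlapped in both lines.

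The SLC1 family holds the glutamate and the neutral amino acid carriers, and 3 of its 6 members rose in CAKi-1, where 17.9% of all genes did, and 3 of 6 fell in 786O, where 33.5% of all genes did. *SLC1A5*, the most abundant of them, exchanges glutamine for other neutral amino acids. It was at 275, 262 and 266 TPM in 786O WT and at 175, 178 and 183 TPM in A4KO libraries, which did not overlap (log2 fold change -0.58, standard error 0.038, adjusted p = 3.94e-05, or -0.21 and 0.00555 with the neighbours taken off). In CAKi-1 it was at 113, 116, 109 and 102 TPM in WT, against 85.9, 98.7, 108, 86.1 and 98.4 TPM in A4KO libraries. These ranges overlapped and the change did not pass (log2 fold change -0.21, adjusted p = 0.0623), although it did without A4KO replicate 3 (-0.25, adjusted p = 0.0224). *SLC1A5* shares 27.2% of its 31-base words with other genes.

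*SLC1A4*, an exchanger of alanine, serine and cysteine, was at 3.05, 3.00, 3.08 and 3.53 TPM in CAKi-1 WT and at 4.13, 6.25, 5.86, 4.5 and 6.22 TPM in A4KO libraries. In 786O it was at 42.6, 39.9 and 39.3 TPM in WT, against 21.1, 22.1 and 20.5 TPM in A4KO libraries. The groups did not overlap in either line, and the gene rose in CAKi-1 (log2 fold change 0.61, adjusted p = 0.00311, or 0.77 without replicates 1 and 4) and fell in 786O (-0.90, standard error 0.048, adjusted p = 1.70e-05). *SLC1A1*, which takes up glutamate, aspartate and cysteine, moved in the same directions. It rose in CAKi-1 from 5.22 ± 0.778 to 7.35 ± 0.503 TPM (log2 fold change 0.43, adjusted p = 0.00475) and fell in 786O from 17.7 ± 0.144 to 13.4 ± 0.233 TPM (log2 fold change -0.38, adjusted p = 1.37e-04), although with the neighbours taken off the change in 786O was -0.04 (adjusted p = 0.408).

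*SLC1A3*, a glutamate and aspartate carrier, was at 1.16, 1.45, 1.60 and 2.26 TPM in CAKi-1 WT and at 3.81, 4.28, 4.05, 4.65 and 4.43 TPM in A4KO libraries. The A4KO libraries all lay above the WT libraries, at a log2 fold change of 1.02 (standard error 0.11, adjusted p = 1.56e-04), which was also 1.02 without replicates 1 and 4. In 786O it was at 3.37, 3.50 and 2.29 TPM in WT, against 2.62, 3.17 and 2.05 TPM in A4KO libraries (adjusted p = 0.418), and the change was lower there by 1.18 (adjusted p = 1.67e-04). *SLC1A2* and *SLC1A6* were below 0.6 TPM in every library and did not pass in either line.

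The largest change of any transporter was in the SLC38 family, whose members carry glutamine and other small neutral amino acids. *SLC38A5* (chromosome X, 48458537 to 48470260 on the minus strand), which moves glutamine, asparagine, histidine, glycine and serine, was at 300, 293 and 301 TPM in 786O WT and at 0.464, 0.307 and 0.577 TPM in A4KO libraries. The mean fell from 298 ± 4.13 to 0.449 ± 0.135 TPM, a ratio of 663 between the means, for a log2 fold change of -7.69 (standard error 0.071, adjusted p = 8.08e-08). *SLC38A5* was thus the most abundant transporter in 786O WT, with 16.4% ± 0.188 of the summed TPM of the 42 genes, and held 0.0245% ± 0.00744 in A4KO libraries. In CAKi-1 it was at 0.297, 0.678, 0.306 and 0.302 TPM in WT, against 0.350, 0.266, 0.161, 0.285 and 0.262 TPM in A4KO libraries and did not pass (adjusted p = 0.247).

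*SLC38A2*, the glutamine and alanine carrier that cells raise when amino acids are short, was at 87.4, 83.4, 85.1 and 85.1 TPM in CAKi-1 WT and at 119, 99.5, 104, 128 and 97.5 TPM in A4KO libraries. In 786O it was at 166, 162 and 165 TPM in WT, against 100, 96.4 and 98.3 TPM in A4KO libraries. It rose in CAKi-1 (log2 fold change 0.35, standard error 0.084, adjusted p = 0.00972, or 0.23 without replicates 1 and 4) and fell in 786O (-0.74, standard error 0.035, adjusted p = 1.06e-05). *SLC38A1*, a close relative with similar substrates, was at 51.2, 57.3, 55.8 and 58.7 TPM in CAKi-1 WT and at 51.8, 55.9, 62.1, 56.8 and 64.0 TPM in A4KO libraries, and at 94.3, 90.0 and 90.6 against 88.7, 94.5 and 88.9 TPM in 786O. Its groups overlapped in both lines, with log2 fold changes of 0.06 (standard error 0.072) and -0.01 (standard error 0.043).

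Among the lysosomal members, *SLC38A7*, which exports glutamine from lysosomes, was at 13.6, 15.7 and 14.2 TPM in 786O WT and at 21.6, 25 and 25.1 TPM in A4KO libraries (log2 fold change 0.69, adjusted p = 4.25e-04), or 0.34 with the neighbours taken off (adjusted p = 0.0149). In CAKi-1 it was at 15, 13.4, 16.1 and 13.4 TPM in WT, against 13.2, 11.3, 13.1, 12.6 and 13.4 TPM in A4KO libraries, with adjusted p = 0.0874. *SLC38A9*, the arginine sensor of the lysosome that signals to mTORC1, was at 11.8 ± 1.51 and 12.6 ± 1.25 TPM in CAKi-1 and at 9.54 ± 0.510 and 10.4 ± 1.05 TPM in 786O, and passed in neither.

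The less well known SLC38 members changed in 786O. *SLC38A10* rose there from 63.3, 58.6 and 59.5 TPM to 72.8, 72.9 and 72.6 TPM (log2 fold change 0.26, adjusted p = 0.00177, or 0.06 and 0.262 with the neighbours taken off). In CAKi-1 *SLC38A10* was at 110, 110, 106 and 115 TPM in WT, against 142, 116, 117, 141 and 111 TPM in A4KO libraries (adjusted p = 0.136). Its difference between the lines (0.09, adjusted p = 0.522) passed under 1 of the alternatives, with A4KO replicates 2, 3 and 5 of CAKi-1 alone (0.21, adjusted p = 0.0089), where its change in CAKi-1 was 0.05. *SLC38A6* was at 26.8, 24.5 and 27.2 TPM in 786O WT and at 13.6, 14.9 and 16.1 TPM in A4KO libraries (log2 fold change -0.78, adjusted p = 1.68e-04), but its neighbours fell alike, and with them taken off the value was 0.04 (adjusted p = 0.686). In CAKi-1 *SLC38A6* was at 8.72, 9.76, 8.61 and 9.45 against 7.46, 8.07, 7.93, 6.78 and 9.34 TPM (adjusted p = 0.0936, or 0.0215 without A4KO replicate 5). *SLC38A11* fell in 786O from 2.23, 1.69 and 2.06 TPM to 0.444, 0.380 and 0.275 TPM (log2 fold change -1.13, adjusted p = 5.92e-05), and its values in CAKi-1 did not exceed 0.239 TPM. *SLC38A4* fell in 786O (0.675 ± 0.0242 to 0.251 ± 0.0674 TPM) and *SLC38A3*, a glutamine carrier of the proximal tubule, rose in CAKi-1 (0.1 ± 0.102 to 0.398 ± 0.139 TPM, adjusted p = 0.014). The groups of *SLC38A3* overlapped, and it did not pass with A4KO replicates 2, 3 and 5 alone (0.29, adjusted p = 0.057). The summed TPM of the family went from 668 ± 11.2 to 312 ± 2.22 in 786O and from 288 ± 5.59 to 327 ± 24.6 in CAKi-1.

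**Figure D4:**
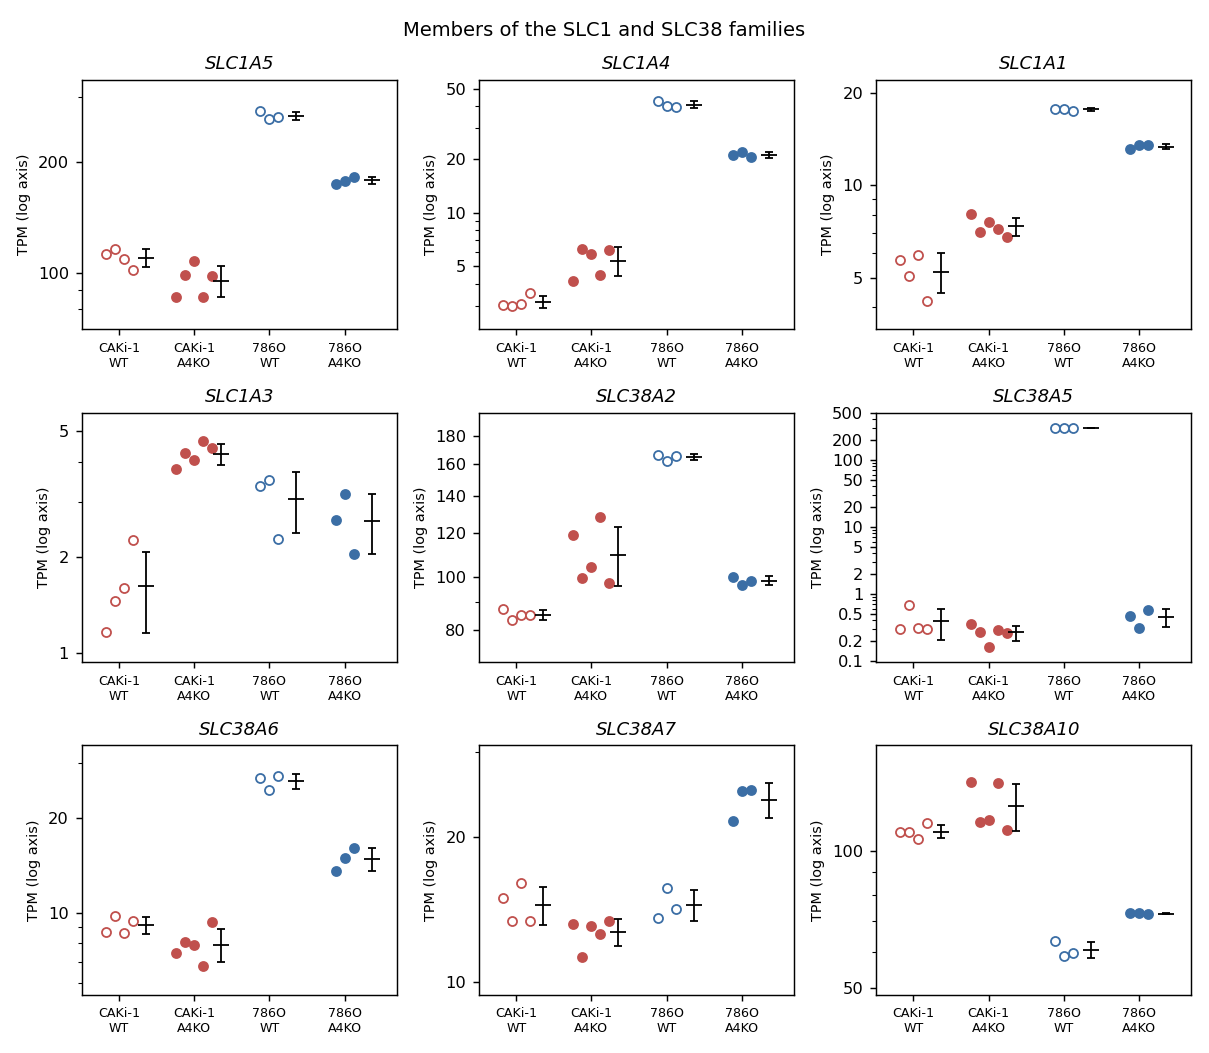
TPM of members of the SLC1 and SLC38 families in each library (log axis), with open circles for WT, filled circles for A4KO, and the mean with its SD beside each group. *SLC38A5* drops from 293 to 301 TPM to 0.307 to 0.577 TPM in 786O, and *SLC1A4*, *SLC1A1* and *SLC38A2* are higher in A4KO than in WT in CAKi-1 and lower in 786O.

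*SLC38A5* and *SLC7A5* had the largest fall and the largest rise in TPM among the transporters of 786O, so the sequences of their promoters are shown. Both hold ACGTG, core letters that hypoxia-inducible factors recognise, among other factors. In the 250 bases before the RefSeq start sites (GRCh38.p14), ACGTG was searched on both strands. It was found in 18.5% of 35116 windows over all genes and in 15 of 58 windows (25.9%) of 36 transporter genes. These 15 windows belong to 14 genes, among them *SLC38A1* and *SLC36A4*, which changed in neither line. The letters TGATGNAA, which ATF4 and its partners recognise, were in 3.14% of all windows and in 2 transporter windows (*SLC1A3* and *SLC1A5*), and TGACNNNGC, the core of the site of NRF2, was in 10.9% of all windows and in 6 transporter windows (10.3%). *SLC7A5* and *SLC38A5* hold neither of the latter. In each of them ACGTG matched on both strands at 1 place, where the matches overlap and spell the 6 letters in capitals, 130 to 125 bases before the start in *SLC7A5* and 206 to 201 bases before it in *SLC38A5*. These matches are letters in a window, and binding was not measured.
SLC7A5, chr16:87869508-87869757, minus strand: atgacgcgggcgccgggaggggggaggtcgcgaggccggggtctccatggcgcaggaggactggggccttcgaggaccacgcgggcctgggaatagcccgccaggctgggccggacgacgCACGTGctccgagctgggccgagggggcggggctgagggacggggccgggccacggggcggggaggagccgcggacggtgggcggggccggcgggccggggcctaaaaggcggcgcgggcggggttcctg
SLC38A5, chrX:48470261-48470510, minus strand: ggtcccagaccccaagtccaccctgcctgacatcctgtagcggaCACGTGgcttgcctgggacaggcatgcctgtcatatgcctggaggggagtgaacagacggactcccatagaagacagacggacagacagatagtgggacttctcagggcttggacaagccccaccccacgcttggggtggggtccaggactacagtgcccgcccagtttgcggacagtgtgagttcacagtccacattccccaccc

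The 2 windows differ in composition, with 79.6% G and C in *SLC7A5* and 60.8% in *SLC38A5*.

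The 2 SLC43 members that were examined carry large neutral amino acids with no exchange partner, like the SLC7A5 heterodimer in substrate but not in mechanism. *SLC43A1* was at 0.493, 0.550, 0.366 and 0.408 TPM in CAKi-1 WT and at 0.855, 0.635, 1.14, 1.10 and 1.04 TPM in A4KO libraries, and at 8.37, 7.70 and 7.53 against 1.98, 2.48 and 1.88 TPM in 786O. It rose in CAKi-1 (log2 fold change 0.42, adjusted p = 0.0045, or 0.68 with the neighbours taken off) and fell in 786O (-1.51, standard error 0.081, adjusted p = 1.73e-05), so that in each line it moved in the direction opposite to *SLC7A5*. At its TPM in CAKi-1, log2(TPM + 1) understates a change, so taking off the neighbours' median of -0.25 there corrects too much. *SLC43A2* was at 2.69, 2.86, 4.28 and 7.16 TPM in CAKi-1 WT and at 8.81, 8.13, 6.25, 9.35 and 7.18 TPM in A4KO libraries. WT replicate 4 lay within the range of the A4KO libraries, and the rise (log2 fold change 0.83, adjusted p = 0.0161) did not pass without WT replicate 2 (0.71, adjusted p = 0.0506) or with A4KO replicates 2, 3 and 5 alone (0.71, adjusted p = 0.0724). In 786O *SLC43A2* was at 2.74, 1.76 and 2.47 TPM in WT, against 3.37, 2.82 and 3.72 TPM in A4KO libraries, near the threshold (log2 fold change 0.38, adjusted p = 0.0456), and it did not pass without WT replicate 2 or 3 or A4KO replicate 1 or 3 (adjusted p between 0.0727 and 0.129). With the neighbours taken off its value in 786O was 0.88 (adjusted p = 0.00132), and with quantile normalization 0.60.

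In the SLC36 family, *SLC36A1*, which moves small amino acids out of lysosomes with protons, fell in CAKi-1 from 4.86 ± 0.177 to 3.24 ± 0.309 TPM (log2 fold change -0.47, adjusted p = 4.62e-04) and was at 5.62 ± 0.164 and 5.82 ± 0.175 TPM in 786O. *SLC36A4*, a carrier of proline and tryptophan, was at 17.2, 20.0, 20.0 and 21.7 TPM in CAKi-1 WT and at 22.3, 21.0, 20.8, 21.4 and 22.1 TPM in A4KO libraries, and at 23.9, 28.7 and 24.7 against 27.0, 25.8 and 23.8 TPM in 786O. Its groups overlapped in both lines. *SLC36A2* and *SLC36A3* did not exceed 0.157 TPM.

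Of the 11 SLC6 members in each line, 1 rose and 1 fell in CAKi-1, and 5 rose and 1 fell in 786O, against 17.9% and 21.1% of all genes in CAKi-1 and 27.5% and 33.5% in 786O. *SLC6A6*, the taurine carrier, was at 138, 130 and 137 TPM in 786O WT and at 88.1, 91.3 and 84.1 TPM in A4KO libraries (log2 fold change -0.62, standard error 0.046, adjusted p = 6.81e-05), or -0.35 with the neighbours taken off. CAKi-1 WT replicates spread from 21.8 to 51.9 TPM (51.9, 46.0, 35.4 and 21.8) around the A4KO values of 36.7, 31.9, 31.8, 33.3 and 30.7 TPM, and the change did not pass (log2 fold change -0.16, adjusted p = 0.575), although it did without WT replicate 4 (-0.41, adjusted p = 0.0289). *SLC6A8*, the creatine carrier, was at 96.4, 91.6 and 89.7 TPM in 786O WT and at 106, 111 and 112 TPM in A4KO libraries (log2 fold change 0.24, adjusted p = 0.00369, or 0.12 and 0.0442 with the neighbours taken off). In CAKi-1 *SLC6A8* was at 11.7, 10.5, 8.84 and 7.48 TPM in WT, against 8.91, 6.24, 8.27, 8.75 and 7.23 TPM in A4KO libraries (adjusted p = 0.164), and 22.0% of its 31-base words are shared, chiefly with *SLC6A10P*.

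*SLC6A9*, a glycine carrier, rose in 786O from 0.217, 0.329 and 0.758 TPM to 4.97, 4.54 and 5.55 TPM (log2 fold change 2.08, standard error 0.14, adjusted p = 4.84e-05), with a ratio of the means of 11.6. In CAKi-1 it was at 0.520, 0.533, 0.464 and 0.827 TPM in WT, against 0.951, 0.679, 1.24, 0.336 and 1.18 TPM in A4KO libraries (adjusted p = 0.27, or 0.0405 without A4KO replicate 4). *SLC6A13*, a GABA and taurine carrier of kidney and liver, fell in CAKi-1 from 2.82, 2.86, 1.65 and 1.66 TPM to 1.06, 0.972, 0.881, 1.13 and 0.986 TPM (log2 fold change -0.67, adjusted p = 0.00305). It rose in 786O from 0.381, 0.848 and 0.8 TPM to 3.07, 2.16 and 2.52 TPM (log2 fold change 1.10, adjusted p = 7.38e-04).

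*SLC6A12*, the betaine and GABA carrier that lies beside *SLC6A13* on chromosome 12, rose in 786O from 0.605, 0.410 and 0.276 TPM to 0.956, 0.761 and 1.45 TPM (adjusted p = 0.0191, or 0.053 and 0.0602 without WT replicate 2 or 3 and 0.0668 with the neighbours taken off). In CAKi-1 it was at 0.263, 0.164, 0.347 and 0.136 TPM in WT, against 0.507, 0.615, 0.626, 0.194 and 0.388 TPM in A4KO libraries (adjusted p = 0.0721, or 0.0133 without A4KO replicate 4 and 0.0173 without replicates 1 and 4). *SLC6A19*, the neutral amino acid carrier of the proximal tubule, was listed in CAKi-1 alone. It rose there from 0.08, 0.0531, 0.0486 and 0.0985 TPM to 1.02, 0.556, 0.508, 0.945 and 0.401 TPM (log2 fold change 0.64, adjusted p = 0.00192), or 0.48 without replicates 1 and 4. *SLC6A3*, the dopamine carrier, was listed in 786O alone and rose from 0.112, 0.0529 and 0.0499 TPM to 0.463, 0.406 and 0.915 TPM (log2 fold change 0.56, adjusted p = 0.00689). *SLC6A14*, a carrier of neutral and basic amino acids, did not exceed 0.0245 TPM in 786O. Of the members not yet named, *SLC6A15*, a carrier of neutral amino acids in neurons, was at 10.3 to 13.5 TPM in CAKi-1 WT and 12.4 to 19.1 TPM in A4KO libraries (adjusted p = 0.0629, or 0.00308 without replicates 1 and 4). *SLC6A4*, *SLC6A16*, *SLC6A17* and *SLC6A20* did not pass in the lines that list them. Most of the genes of this paragraph were at low TPM, where log2(TPM + 1) understates a change.

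Summed over all 42 transporters, TPM went from 911 ± 46.8 to 758 ± 22.8 in CAKi-1 and from 1821 ± 27.2 to 1839 ± 14.2 in 786O. In 786O the losses of the SLC38 family (668 ± 11.2 to 312 ± 2.22) and the SLC1 family (330 ± 8.66 to 217 ± 3.61) stood beside a gain of the SLC7 family from 310 ± 11.4 to 677 ± 7.03 TPM. In CAKi-1 the SLC7 family fell from 225 ± 18.2 to 128 ± 12.5 TPM, whereas the SLC1 sum was at 121 ± 5.60 and 113 ± 10.2 TPM. By mean TPM over the WT and A4KO libraries of a line together, the 5 most abundant transporters held 66.9% of the summed TPM in CAKi-1 and 66.1% in 786O, so that the sums describe few genes. In 786O these 5 include *SLC38A5*, which held 16.4% in WT and 0.0245% in A4KO libraries. Both group means were below 1 TPM for 17 of the 42 transporters in CAKi-1 and for 14 in 786O, and 4 and 3 of these passed.

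Around some transporters of 786O the neighbouring genes were shifted as a group. The median log2 fold change of the neighbours differed between chromosomes and within them. On chromosome 17 it was -0.53 around *SLC43A2* and 0.20 around *SLC38A10*, and on chromosome 19 it was -0.36 around *SLC1A5* and 0.06 around *SLC1A6*. On chromosome 14 it was -0.81 around *SLC7A7* and -0.84 around *SLC38A6* and *SLC7A8*, on chromosome 16 it was 0.42 around *SLC7A5*, 0.39 around *SLC7A6* and 0.35 around *SLC38A7*, and on chromosome 13 it was 0.54 around *SLC7A1*. With the neighbours taken off, *SLC7A5* kept a log2 fold change of 1.17 (adjusted p = 7.98e-06) and *SLC7A7* one of -0.55 (adjusted p = 0.0018). *SLC7A1*, which had not passed, was lower than its neighbours by 0.41 (adjusted p = 8.42e-04). *SLC38A5*, *SLC3A2* and *SLC7A11* lay among neighbours with medians of 0.01, -0.12 and -0.11. In CAKi-1, with medians of -0.29 around *SLC7A5* and -0.28 around *SLC3A2*, both stayed lower with the neighbours taken off (-1.36 and -0.72).

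**Figure D5:**
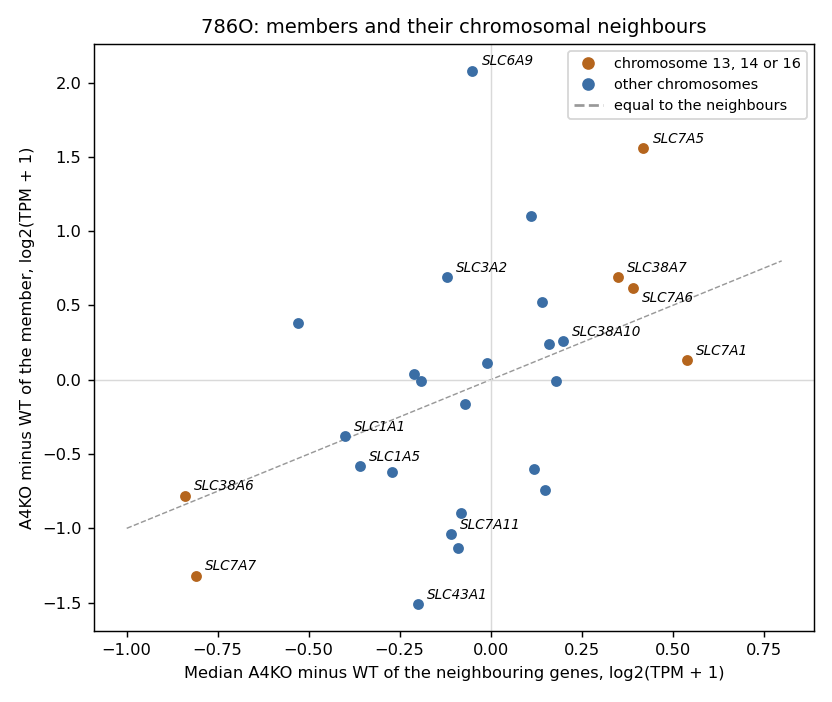
Change of 27 transporters of 786O with a group mean of at least 1 TPM (vertical axis, A4KO minus WT on the log2 scale) against the median change of their expressed neighbours (horizontal axis), with genes on chromosomes 13, 14 and 16 in brown; *SLC38A5*, at -7.69, is left out. *SLC38A6* and *SLC1A1* lie on the dashed line of equality, *SLC7A7* lies below it and *SLC7A5* above it.

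Genes of related pathways were counted in the same way, and each count is to be read against the 17.9% of all genes that rose and the 21.1% that fell in CAKi-1, and the 27.5% and 33.5% in 786O. Of 29 genes of the amino acid response driven by the transcription factor ATF4, 8 rose and 7 fell in CAKi-1 (median log2 fold change -0.01), and 8 rose and 18 fell in 786O (median -0.47). *ATF4* itself was at 360 ± 3.23 TPM in 786O WT and 348 ± 4.93 TPM in A4KO cells, with adjusted p = 0.254. It rose in CAKi-1 from 211 ± 12.3 to 260 ± 17.9 TPM (log2 fold change 0.30, adjusted p = 0.00598). Past both thresholds in 786O, *ASNS* (asparagine synthesis), *CTH* and *CBS* (transsulfuration, the route from methionine to cysteine), *CHAC1* (breakdown of glutathione), *WARS1* (charging of tryptophan tRNA), *STC2* and *NUPR1* were lower, with log2 fold changes of -1.19, -1.04, -1.93, -1.56, -1.74, -1.74 and -1.80, and *ATF3* was higher by 1.66. In CAKi-1 *STC2* (-2.13) and *NUPR1* (-1.05) were also lower, whereas *CBS* (1.07), *DDIT4* (1.29) and *CEBPB* (1.14) were higher.

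Of 24 genes listed as further carriers of amino acids or peptides outside the symbols searched for, which serve mitochondria, lysosomes and vesicles as well, 1 rose and 10 fell in CAKi-1, and 9 rose and 6 fell in 786O. *SLC43A3*, the remaining SLC43 member, which was on this list although it is known as a carrier of purine nucleobases, was among those that fell in both lines, by 0.70 on the log2 scale in CAKi-1 and by 0.34 in 786O. Past both thresholds were *SLC15A3*, a peptide and histidine carrier of lysosomes (-1.69), and *SLC25A29*, a mitochondrial carrier of basic amino acids (-1.18), both in 786O. In CAKi-1 *SLC15A3* fell by 0.35, whereas *SLC25A29* rose by 0.92. Among partner proteins of the transporters, 5 of 10 rose and 2 fell in CAKi-1, and 6 of 12 rose and 1 fell in 786O. In 786O *NHERF1* was higher by 1.47 and *GRIP1* by 1.23, the latter from a WT level of 1.52 ± 1.42 TPM. In CAKi-1 *NHERF1* was lower (-0.43, adjusted p = 0.00232). *CD44*, which stabilises the SLC7A11 protein, was lower in 786O by 1.02, from 340 ± 2.38 to 168 ± 4.20 TPM. It was also lower in CAKi-1, where *SLC7A11* did not pass, from 1297 ± 186 to 869 ± 76.6 TPM (-0.57, adjusted p = 0.00249). *PDZK1*, a scaffold of the proximal tubule, was higher in both lines, by 1.37 in CAKi-1 and by 0.81 in 786O (125 ± 3.89 to 220 ± 4.51 TPM).

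The enzymes that use the transported amino acids also changed in part. For glutathione synthesis and thiol redox, 3 of 16 genes rose and 5 fell in CAKi-1, and 8 rose and 3 fell in 786O. *HMOX1*, which breaks down haem, fell by 2.19 on the log2 scale in 786O and rose by 0.62 in CAKi-1. For glutamine, glutamate, aspartate and asparagine, 1 of 15 rose and 4 fell in CAKi-1, and 3 rose and 6 fell in 786O. There *ASS1*, which uses aspartate to make arginine, was at 80.8 ± 1.22 TPM in WT and 9.75 ± 0.157 TPM in A4KO cells (log2 fold change -2.93, adjusted p = 9.41e-08). For branched-chain amino acids, arginine, proline and tryptophan, 6 of 18 rose and 5 fell in CAKi-1, with *IDO1* (tryptophan breakdown) higher by 1.39, and 8 of 19 rose and 6 fell in 786O, with *ARG2* (arginine breakdown) lower by 2.14 and *PRODH2* higher by 1.04. *ARG2* was higher in CAKi-1, by 0.72, and *IDO1* was also higher in 786O, by 0.33. For amino acid sensing at the lysosome and mTORC1, 4 of 36 rose and 13 fell in CAKi-1, and 16 rose and 11 fell in 786O. *RRAGD*, a GTPase that recruits mTORC1, was higher in both lines, by 1.82 in 786O and by 0.87 in CAKi-1.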

How the data were processed

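RNA-seq of WT and A4KO cells of CAKi-1 and 786O was analysed from the values for each gene that the authors deposited, a separate set for each line. The authors pseudoaligned paired-end reads to hg38 with kallisto and used limma, with no versions given in the sources used here. The deposited values were taken as TPM, inferred from the values themselves: they are not whole numbers and sum to between 961437 and 973887 per library. TPM keeps no depth, so no counting error is given. How transcripts were summed to genes is not given in the sources used here.

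Values were taken to log2(TPM + 1), and the genotypes of a line were compared with the moderated linear model of limma 3.58.1 (functions lmFit and eBayes, R 4.3.3). Tests were two-sided, p-values were adjusted by Benjamini-Hochberg across every gene listed for that line, and genes at low TPM were kept. The difference between the lines was tested as an interaction term over the shared genes. Since each line's values were made separately, levels were set side by side across lines and not tested. The exact permutation test over libraries cannot give a two-sided p under 0.0159 in CAKi-1 or under 0.1 in 786O. Coordinates and transcripts are from GENCODE release 44 (hg38), and promoters from RefSeq.

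Values for each library are given for transporters with an adjusted p of at most 0.05 and a log2 fold change of at least 0.5 in either line or among the 10 most abundant of a line, and group values for a further list by known role. The transporters and the gene lists were chosen with earlier results of these data known. Alternatives were eBayes with trend and robust options, a pseudocount of 0.1, a mean of at least 1 TPM, quantile normalization, a replicate block, each library left out, A4KO replicates 2, 3 and 5 alone, and values centred on expressed neighbours (mean log2 of at least 1). One of the partner proteins and one of the transporters counted are not reported here by name. Proteins were not measured.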

Additional observations from a re-analysis of the deposited data

Results flagged for a closer look

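The changes in A4KO cells differed between 786O and CAKi-1, with opposite directions in the 2 lines, for 10 of 38 transporters, against 16% of the 15247 shared genes with opposite changes. Since these 10 were picked by opposite calls in the same libraries, the tests of their differences add little to those calls. Given as the log2 fold change in 786O minus that in CAKi-1, with the adjusted p of limma's interaction term, the differences were 3.20 for *SLC7A5* (1.86e-06), 1.77 for *SLC6A13* (6.38e-06), 1.66 for *SLC3A2* (3.36e-06), 1.01 for *SLC7A6* (2.12e-06) and 0.81 for *SLC7A8* (2.62e-04), which fell in CAKi-1 and rose in 786O. They were -3.11 for *SLC7A7* (3.33e-06), -1.93 for *SLC43A1* (3.39e-08), -1.51 for *SLC1A4* (1.84e-06), -1.09 for *SLC38A2* (1.84e-06) and -0.81 for *SLC1A1* (4.79e-05), which rose in CAKi-1 and fell in 786O. Around *SLC7A7* in 786O the neighbouring genes fell by a median of 0.81, and around *SLC7A5* and *SLC7A6* they rose by 0.42 and 0.39. With the neighbours taken off, the changes of *SLC1A1* in 786O (-0.04, adjusted p = 0.408) and of *SLC7A6* in CAKi-1 (-0.17, adjusted p = 0.127) did not pass.

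A library lay far from the others of its group, by the ratio of its gap to the range of the group, for 3 of 62 groups checked, where chance gives about 1 in 20. *SLC38A5* was at 0.678 TPM in CAKi-1 WT replicate 2, against 0.297 to 0.306 TPM in the other WT libraries. *SLC38A11* was at 0.239 TPM in CAKi-1 A4KO replicate 5, against 0.0249 to 0.0586 TPM. *SLC1A4* was at 3.53 TPM in CAKi-1 WT replicate 4, against 3.00 to 3.08 TPM, and its A4KO libraries were all higher.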

How the results depend on the processing

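The number of transporters past both thresholds in CAKi-1 moved from 3 to 7 with a pseudocount of 0.1, and lay between 2 and 5 with each library left out, the highest without WT replicate 4; the cause was not tested. The number that fell in CAKi-1 moved from 6 to 10 with neighbour-centred values. The other counts of transporters that changed, were past both thresholds or differed between the lines stayed within 1.5 times their value under each alternative tried. With a mean of at least 1 TPM required, 8 of 22 transporters had opposite changes, against 19.6% of 11913 genes, and *SLC43A1* and *SLC7A8* were left out as low. Under the other alternatives 10 or 11 of 38 had opposite changes. With each library left out, 15 to 19 transporters changed in CAKi-1, 23 to 25 changed and 7 to 8 were past both thresholds in 786O, and 20 to 23 differed between the lines. Directions reversed under neighbour-centred values, by whose construction the change of the neighbours is taken off, in 786O for *SLC38A6* (0.04) and *SLC7A1* (-0.41) and in the difference between the lines for *SLC1A5* (0.09), *SLC38A6* (0.23) and *SLC7A1* (-0.47). They also ended the calls of *SLC38A10* (0.06) and *SLC6A12* (0.37) in 786O. *SLC43A2* in 786O did not pass with a pseudocount of 0.1 (adjusted p = 0.0675), and the difference between the lines of *SLC6A8* did not pass in 6 of the fits without 1 library (adjusted p between 0.0536 and 0.0606). The replicate numbers are shared by WT and A4KO libraries, but the deviations of same-numbered libraries correlated at -0.0621 to 0.135 in CAKi-1 and -0.046 to 0.0197 in 786O, so they do not pair the libraries. With the replicate block, 16 transporters changed and 4 were past both thresholds in CAKi-1, and 25 and 8 in 786O. TPM gives no depth, so how far depth limits the transporters below 1 TPM is unknown.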
